A study of Mus musculus with 8 samples.

Results

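The gelsolin family of actin-severing and actin-capping proteins was followed at the level of its transcripts in mouse cardiac fibroblasts. Its 5 members here, Gsn, Scin, Capg, Svil and Flii, were taken by gene symbol out of 54532 Ensembl genes in the deposited table. The set was chosen by the FPKM of Gsn between the media, as Gsn ranked among the most abundant transcripts in osteogenic medium, so the levels of Gsn in the media are given as a description, with no test. The other members entered by family name, in a list drawn up with earlier results of these data known. The relatives Vil1, Vill and Avil are not in it. All 5 passed the filter on low values (at least 1 FPKM in at least 2 libraries), which 12994 genes passed, and Scin did so through libraries in osteogenic medium alone.

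RNA sequencing covered 8 libraries collected on day 7, 2 in each of 4 groups. The groups were EphrinB2-overexpressing cells in osteogenic differentiation medium, EphrinB2-overexpressing cells in complete medium, vector cells in osteogenic differentiation medium and vector cells in complete medium. EphrinB2, the product of Efnb2, sits in the cell membrane and binds Eph receptors on neighbouring cells, and the vector cells are the control for its overexpression. The labels name neither the composition of the osteogenic medium nor the vector, promoter, strain or age of the mice, and do not say whether the libraries of a group are separate cultures. The p-values therefore measure the spread between libraries, which may be technical.

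Proteins of this family are built from repeats of the gelsolin domain, which binds actin. Gelsolin (Gsn) cuts actin filaments when calcium rises and stays on the new barbed end as a cap, and phosphoinositides release it. Adseverin (Scin) also severs, Capg caps filament ends without cutting them, supervillin (Svil) ties filaments and myosin II to the membrane, and Flii joins gelsolin repeats to a leucine-rich region and also acts in the nucleus. In fibroblasts gelsolin is known for its part in motility and filament turnover, and a secreted form clears actin from plasma.

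Levels are given as FPKM, fragments scaled by exon length and by the counted reads of a library, a unit that allows levels to be compared between genes. The libraries held 16493908 to 20550771 counted reads, as estimated from the steps between low FPKM values. Efnb2 stood at 5.02 and 18.3 FPKM in EphrinB2 cells in osteogenic medium, against 1.39 and 1.27 FPKM in vector cells in that medium. In complete medium it stood at 31.3 and 32.9 FPKM in EphrinB2 cells, against 6.30 and 5.56 FPKM in vector cells. Each EphrinB2 library lay above the vector libraries of its medium. EphrinB2 osteogenic replicate 1 and EphrinB2 complete replicate 2 stood apart from their partners. Across the tested genes with a known length, the partner difference followed merged exon length with a Spearman's rho of -0.51 for replicate 1 minus replicate 2 in osteogenic medium and 0.44 for replicate 2 minus replicate 1 in complete medium. The corresponding rho in vector cells was 0.02 and -0.04. Genes are not independent replicates, and these rho values are descriptions. Fibroblast markers were present in every library, with a summed level of the 10 listed genes between 2823 and 6190 FPKM. Macrophage markers were present too, at 1019 to 8953 FPKM summed over 21 genes. The cardiomyocyte marker Actn2 was at 0 in every library, and 7 of 8 cardiomyocyte, 3 of 7 endothelial, 2 of 6 smooth muscle and pericyte, 2 of 5 adipocyte, 4 of 6 mesothelial and 4 of 4 lymphocyte markers stayed under 1 FPKM throughout. The cardiomyocyte list summed to 15.5 and 8.69 FPKM in EphrinB2 cells in osteogenic medium, against 0.923 and 0.917 FPKM in complete medium, with Tnnt2 as its only tested gene. In vector cells this list summed to 6.12 and 7.17 FPKM in osteogenic medium, against 0.937 and 0.733 FPKM in complete medium. Endothelial markers summed to 8.86 to 12.3 FPKM, smooth muscle and pericyte markers to 30.2 to 114 FPKM, mesothelial markers to 6.10 to 9.77 FPKM and lymphocyte markers to 0.0663 to 0.326 FPKM over the 8 libraries. The endothelial and mesothelial sums hide opposite differences between the media. In both kinds of cell Msln passed as higher in osteogenic medium and Cdh5 as lower. Upk3b stood lower there and Tek higher, neither past the threshold. In EphrinB2 cells Msln stood at 3.71 and 5.59 FPKM in osteogenic medium, against 0.294 and 0.0574 FPKM in complete medium. Msln and Cdh5 each reached the filter only through a single medium, so these calls are no independent support.

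Of the 5 members Gsn differed most between the media. It stood at 4349 and 3494 FPKM in EphrinB2 cells in osteogenic medium, against 178 and 145 FPKM in EphrinB2 cells in complete medium. In vector cells it stood at 3253 and 3510 FPKM in osteogenic medium, against 202 and 177 FPKM in complete medium. All 4 osteogenic libraries lay far above all 4 libraries in complete medium, with no overlap. The mean level was 3922 ± 604 FPKM in osteogenic and 162 ± 23.9 FPKM in complete medium in EphrinB2 cells (SD, n = 2 each), a ratio of 24.3. In vector cells it was 3382 ± 182 FPKM in osteogenic and 190 ± 17.5 FPKM in complete medium (SD, n = 2 each), a ratio of 17.8. On the log2(FPKM + 1) scale the difference between the media was 4.59 (SE 0.22) in EphrinB2 cells and 4.15 (SE 0.22) in vector cells. The markers of other cell types also differed between the media. Fibroblast markers summed to 3245 and 2961 FPKM in EphrinB2 cells in osteogenic medium, against 5311 and 6190 FPKM in complete medium, and to 2823 and 2886 FPKM in vector cells in osteogenic medium, against 5190 and 5006 FPKM in complete medium. The list went both ways: the collagens Col3a1, Col1a1 and Col1a2 fell and Dcn rose in both kinds of cell, and the median log2 difference of its 10 genes was -0.09 in each. The 5 adipocyte markers summed to 129 and 77.2 FPKM in EphrinB2 cells in osteogenic medium, against 36.0 and 44.9 FPKM in complete medium, and to 69.6 and 69.5 FPKM in vector cells in osteogenic medium, against 35.4 and 33.9 FPKM in complete medium. Lpl and Fabp4 carried these sums, and of 3 tested genes only Fabp4 passed, as higher in both kinds of cell. Adipoq and Plin1 stayed under 1 FPKM in every library. Pparg stood at 1.58 and 1.62 FPKM in EphrinB2 cells in osteogenic medium, against 1.56 and 1.11 FPKM in complete medium. The part of these cell types in the level of Gsn was not tested. In these whole-culture libraries, more cells that express a gene and more RNA per cell cannot be told apart.

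**Figure D1:**
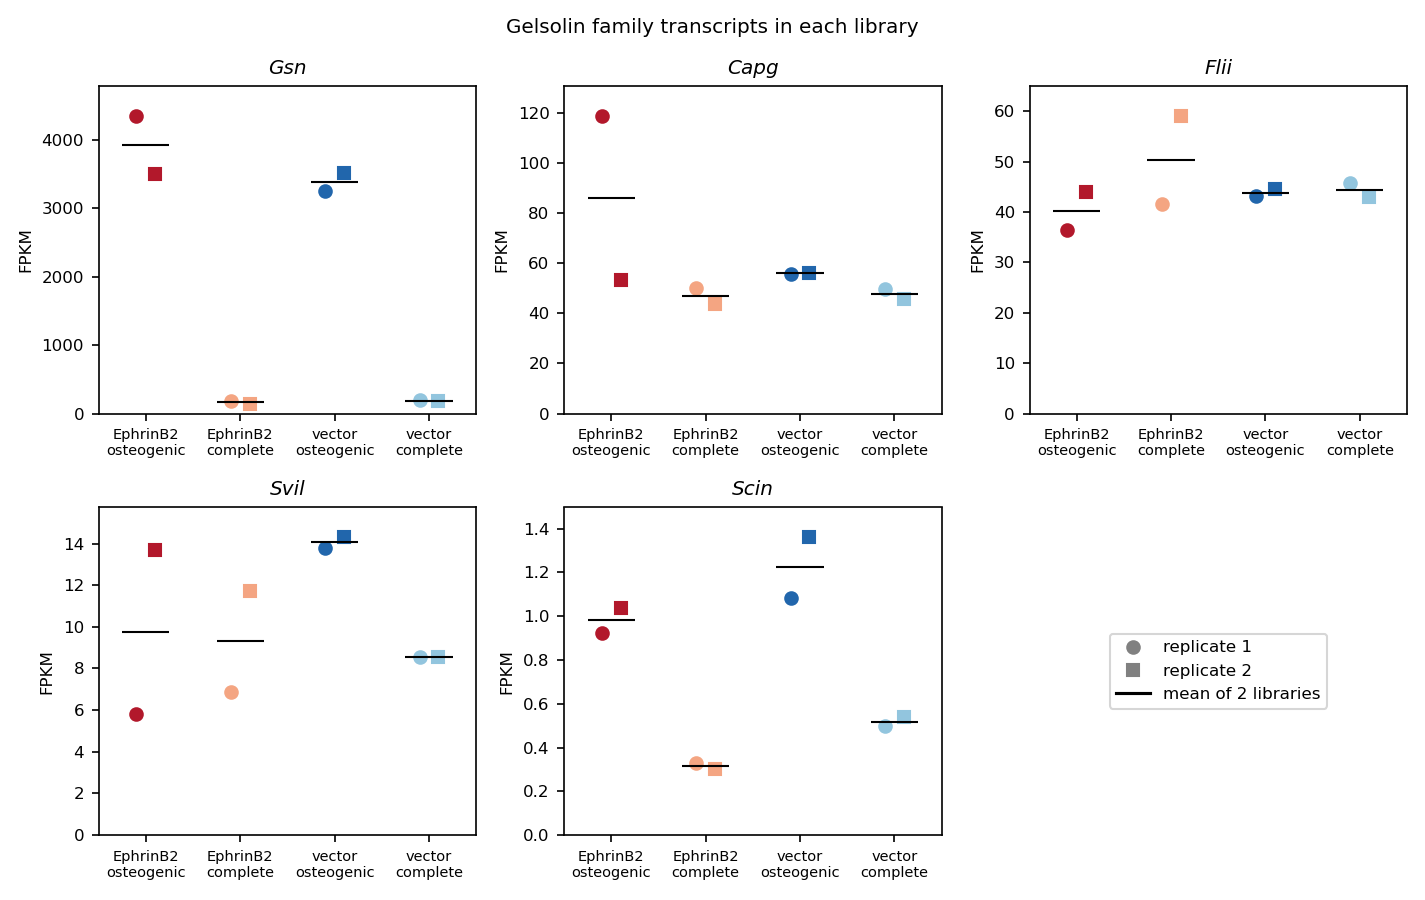
FPKM of each family member (vertical axes, each from 0) in the 4 groups, with a point for each library and a line at the mean of the 2 libraries. Gsn lies between 3253 and 4349 FPKM in osteogenic medium and between 145 and 202 FPKM in complete medium, while Flii lies between 36.5 and 59.1 FPKM in all 8 libraries.

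By rank of FPKM within a library, Gsn was gene 4 and gene 2 of the whole table in EphrinB2 cells in osteogenic medium, against 201 and 246 in complete medium. Vector cells had it as gene 3 and gene 2 in osteogenic medium, against 153 and 170 in complete medium. Gsn made up 1.21% and 1.33% of all FPKM in EphrinB2 cells in osteogenic medium, against 0.0661% and 0.0545% in complete medium. In vector cells its share was 1.28% and 1.36% in osteogenic medium, against 0.0781% and 0.0692% in complete medium. By this share EphrinB2 osteogenic replicate 1, which had the highest FPKM of Gsn, was the lowest of the osteogenic libraries. Its FPKM values add up to 360626, against 253613 to 269809 in the other libraries.

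The genes next to Gsn in mean level included abundant secreted and storage products. In EphrinB2 cells in osteogenic medium the ferritin heavy chain Fth1 (7128 FPKM), the lysozyme Lyz2 (4520 FPKM) and the secreted peroxidase Gpx3 (3958 FPKM) ranked above it. Igfbp7 (3216 FPKM), which binds insulin-like growth factors, the protease inhibitor Serpina3n (2941 FPKM) and the apolipoprotein Apoe (2932 FPKM) ranked next below. In vector cells in osteogenic medium only Fth1 (3923 FPKM) and Lyz2 (3418 FPKM) ranked above Gsn, and mt-Co1 (3156 FPKM), a cytochrome oxidase subunit, Gpx3 (3001 FPKM) and Serpina3n (2813 FPKM) ranked next below. Lyz2 differed from Gsn in vector cells by less than the spread between libraries, with 3359 and 3478 FPKM for Lyz2 against 3253 and 3510 FPKM for Gsn.

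Gsn (ENSMUSG00000026879) lies on the plus strand of GRCm38 chromosome 2 from 35256380 to 35307892, with a merged exon length of 3157 bases and 7 annotated transcripts, 6 of them protein-coding. It is known to make the secreted and the intracellular protein from different starts, and the table has 1 value per gene, so starts cannot be told apart in these data. RefSeq (GRCm38.p6) holds promoters for 3 starts of Gsn, each from 250 bases before to 50 bases after the start, and they are shown because Gsn carries the difference between the media. Capitals mark the GC box GGGCGG on either strand.
Gsn, first start, chr2:35256109-35256408, plus strand: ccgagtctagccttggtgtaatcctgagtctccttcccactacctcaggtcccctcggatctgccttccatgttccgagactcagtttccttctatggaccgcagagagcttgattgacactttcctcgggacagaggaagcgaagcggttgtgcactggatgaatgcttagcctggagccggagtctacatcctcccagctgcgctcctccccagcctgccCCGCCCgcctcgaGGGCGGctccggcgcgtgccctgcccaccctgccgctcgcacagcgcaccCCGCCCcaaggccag
Gsn, middle start, chr2:35266494-35266793, plus strand: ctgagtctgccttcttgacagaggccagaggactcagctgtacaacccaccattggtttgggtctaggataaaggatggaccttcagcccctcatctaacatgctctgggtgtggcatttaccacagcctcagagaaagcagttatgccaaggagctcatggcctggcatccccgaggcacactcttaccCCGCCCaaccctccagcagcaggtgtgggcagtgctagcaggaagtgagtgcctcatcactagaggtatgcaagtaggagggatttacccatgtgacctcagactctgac
Gsn, last start, chr2:35282130-35282429, plus strand: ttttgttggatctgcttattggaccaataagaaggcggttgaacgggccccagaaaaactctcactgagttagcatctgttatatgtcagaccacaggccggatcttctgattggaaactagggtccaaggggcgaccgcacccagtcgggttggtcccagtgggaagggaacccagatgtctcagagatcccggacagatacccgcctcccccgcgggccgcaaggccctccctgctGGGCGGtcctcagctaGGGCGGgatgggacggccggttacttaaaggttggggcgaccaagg
The first window held 3 GC boxes, the middle window 1 and the last window 2, and 35.7% of 32851 RefSeq promoters of this length held at least 1. The glucocorticoid receptor half-site AGAACA, on either strand, was in none of the 3 windows and in 19.0% of all promoters. The CArG box bound by SRF was in none of the 3 windows and in 1.63% of all promoters. With neither other motif present, no marked box overlapped one. A match or its absence describes these letters in these windows and nothing of a factor. The only annotated gene that overlaps Gsn, Gm43128 on the same strand, stood between 0.03 and 1.05 FPKM.

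Scin, the closest relative of gelsolin in domain layout, was the rarest member. It stood at 0.925 and 1.04 FPKM in EphrinB2 cells in osteogenic medium, against 0.328 and 0.303 FPKM in complete medium. Vector cells had 1.09 and 1.36 FPKM in osteogenic medium, against 0.498 and 0.538 FPKM in complete medium. The osteogenic libraries lay above all libraries in complete medium. The depth behind these values was 57 and 60 reads in EphrinB2 and 63 and 79 reads in vector cells in osteogenic medium, against 19 and 15 reads in EphrinB2 and 28 and 30 reads in vector cells in complete medium. The log2 difference between the media was 0.59 (SE 0.15) in EphrinB2 cells and 0.55 (SE 0.15) in vector cells. Neither passed the threshold of 0.05 (limma, adjusted p = 0.0558 and 0.0936). Scin reached the filter only through the medium in which it was high, so these tests are no independent support. The pseudocount of 1 FPKM shrinks such a low gene, and with a pseudocount of 0.1 the difference in EphrinB2 cells was 1.38 (adjusted p = 0.0497). In a fit of the 4 vector libraries alone the difference in vector cells passed (adjusted p = 0.0269), as did 5273 of 12994 genes. Scin (ENSMUSG00000002565) lies on the minus strand of chromosome 12 from 40059769 to 40134228. Its promoter is shown beside those of Gsn, as that of the other severing member.
Scin, chr12:40134179-40134478, minus strand: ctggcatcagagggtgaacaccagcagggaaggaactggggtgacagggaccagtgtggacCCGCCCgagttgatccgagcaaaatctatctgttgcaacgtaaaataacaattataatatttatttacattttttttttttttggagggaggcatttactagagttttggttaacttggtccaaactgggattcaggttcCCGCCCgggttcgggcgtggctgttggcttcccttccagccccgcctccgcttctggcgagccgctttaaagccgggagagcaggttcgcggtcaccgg
It held 2 GC boxes and neither of the other motifs. Of the other members with a RefSeq promoter, Flii had 2 GC boxes and neither other motif, and Capg had 1 AGAACA half-site, on the minus strand, and 0 GC boxes.

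Capg stood at 119 and 53.1 FPKM in EphrinB2 cells in osteogenic medium, against 50.2 and 43.8 FPKM in complete medium. In vector cells it stood at 55.7 and 56.2 FPKM in osteogenic medium, against 49.8 and 45.5 FPKM in complete medium. All 4 osteogenic libraries lay above all 4 libraries in complete medium, and EphrinB2 osteogenic replicate 1 lay more than 2-fold above its partner. The log2 difference between the media was 0.75 (SE 0.35) in EphrinB2 cells and 0.23 (SE 0.35) in vector cells, and neither passed (limma, adjusted p = 0.197 and 0.85). Replicate 1 decided the value in EphrinB2 cells: without it the difference was 0.18 and without its partner 1.32 (adjusted p = 0.00443). The fit without the partner leaves 1 library in that group, assumed to vary like the other groups, and 5686 of 12994 genes passed in it. In a fit of the 4 vector libraries alone, which vary less, the difference of 0.23 in vector cells passed (adjusted p = 0.0357), where 5273 of 12994 genes passed as well. Capg (ENSMUSG00000056737) lies on chromosome 6 from 72544391 to 72562983, plus strand, with a merged exon length of 2529 bases, and no annotated gene overlaps it.

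Capg is strongly expressed in macrophages, whose markers summed higher in osteogenic medium in both kinds of cell. The summed level of the 21 macrophage markers was 8953 and 4492 FPKM in EphrinB2 cells in osteogenic medium, against 1955 and 1019 FPKM in complete medium. Vector cells had 5069 and 5329 FPKM in osteogenic medium, against 2318 and 2049 FPKM in complete medium. Of the 21 markers 17 rose and 1, Cx3cr1, fell past the threshold with osteogenic medium in EphrinB2 cells. In vector cells 10 rose and 0 fell. Cd163, among the risers in both kinds of cell, reached the filter only through osteogenic libraries, so its call is no independent support. Of all tested genes 6.36% rose and 5.44% fell in EphrinB2 cells, and 4.41% rose and 3.11% fell in vector cells. Capg itself passed in neither kind of cell. The library with the highest Capg, EphrinB2 osteogenic replicate 1, was also the one with the highest macrophage sum. Lyz2 alone gave 6061 of its 8953 FPKM. This library stood apart from its partner, with differences that followed exon length, and single markers went both ways between them. C1qa stood at 830 FPKM in replicate 1 and 363 FPKM in replicate 2, but Mrc1 at 36.0 and 55.0 FPKM. In vector cells the macrophage sum differed by a larger factor between osteogenic and complete medium than Capg did. The part of these cells in the level of Capg, or of Gsn, was not tested.

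Svil, the longest member, stood at 5.79 and 13.7 FPKM in EphrinB2 cells in osteogenic medium, against 6.86 and 11.7 FPKM in complete medium, where the groups overlapped. Vector cells had 13.8 and 14.3 FPKM in osteogenic medium, against 8.55 and 8.57 FPKM in complete medium, where the groups did not overlap and each pair lay close together. The log2 difference between the media was 0.00 (SE 0.38) in EphrinB2 cells and 0.65 (SE 0.38) in vector cells (limma, adjusted p = 0.997 and 0.445). In the fit of the vector libraries alone the value in vector cells passed (adjusted p = 0.00121), as did 5273 of 12994 genes. Without both libraries that stood apart, the differences were 0.90 in EphrinB2 cells and 0.65 in vector cells. That fit leaves 1 library in each EphrinB2 group, assumed to vary like the vector libraries. Without replicate 1 in osteogenic medium the difference in EphrinB2 cells was 0.55, and without replicate 2 it was -0.56, and neither passed. Svil (ENSMUSG00000024236) spans chromosome 18 from 4920540 to 5119299, plus strand, with 10701 bases of merged exon.

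Flii kept the narrowest range relative to its level. It stood at 36.5 and 44.0 FPKM in EphrinB2 cells in osteogenic medium, against 41.7 and 59.1 FPKM in complete medium. In vector cells it stood at 43.2 and 44.5 FPKM in osteogenic medium, against 45.7 and 43.0 FPKM in complete medium. The groups overlapped in both kinds of cell. The log2 difference between the media was -0.30 (SE 0.21, interval of 95% from -0.81 to 0.20) in EphrinB2 cells and -0.01 (SE 0.21, interval from -0.52 to 0.49) in vector cells (limma, adjusted p = 0.348 and 0.988). Flii (ENSMUSG00000002812) lies on chromosome 11 from 60714123 to 60727263, minus strand, and Llgl1 overlaps it on the opposite strand at 7.21 to 14.1 FPKM. No source used here states the strand setting, so reads of these genes in the overlap cannot be told apart.

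Of the 4 members other than Gsn, 0 passed in either kind of cell (limma), and 1, Scin, whose test is no independent support, had an unadjusted p under 0.05 in each, as had 3921 (30.2%) of all tested genes in EphrinB2 cells and 2532 (19.5%) in vector cells. Of all tested genes 11.8% passed in EphrinB2 cells and 7.52% in vector cells, so 0 of 4 does not set these members apart from other genes. Leaving out Gsn, which was chosen by its levels in the media, and Scin, which reached the filter through osteogenic medium, the groups of the 2 media did not overlap, with osteogenic medium higher, for Capg in EphrinB2 cells, as for 24.3% of tested genes, and for Capg and Svil in vector cells, as for 34.4%. The opposite order held for none of Capg, Svil and Flii, and for 23.6% of tested genes in EphrinB2 and 38.8% in vector cells. Nothing particular to these 3 members is read from these counts.

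**Figure D2:**
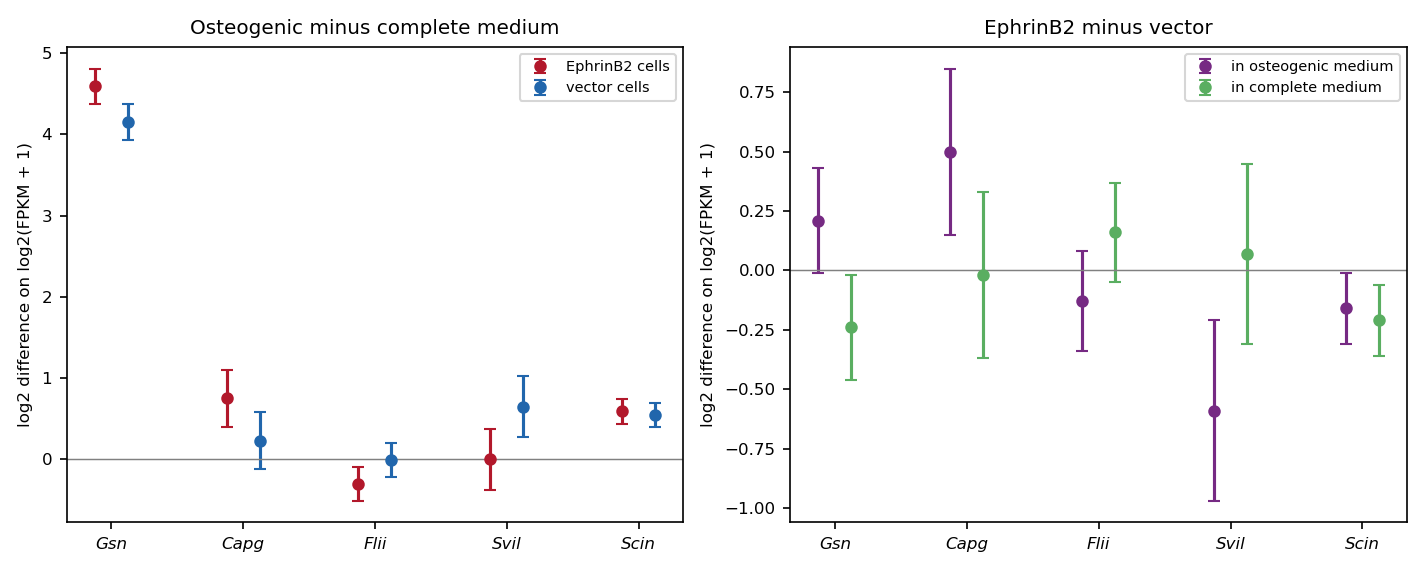
Difference in log2(FPKM + 1) for each member (points, with bars for ± 1 SE from limma), osteogenic minus complete medium on the left and EphrinB2 minus vector on the right, on separate vertical scales. Gsn stands at 4.59 and 4.15 between the media, and all values for EphrinB2 against vector lie between -0.59 and 0.50.

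The make-up of the family's RNA followed Gsn. Gsn gave 96.4% and 96.9% of the summed family FPKM in EphrinB2 cells in osteogenic medium, against 64.3% and 55.7% in complete medium. Gsn gave 96.6% and 96.8% in vector cells in osteogenic medium, against 65.9% and 64.5% in complete medium. In complete medium Capg gave 16.2% to 18.1% and Flii 14.9% to 22.8%. Without Gsn, the other members summed to 162 and 112 FPKM in EphrinB2 cells in osteogenic medium, against 99.0 and 115 FPKM in complete medium, and to 114 and 116 FPKM in vector cells in osteogenic medium, against 105 and 97.6 FPKM in complete medium. The 6 actin genes, the target of the family, summed to 2593 and 1775 FPKM in EphrinB2 cells in osteogenic medium, against 2632 and 2789 FPKM in complete medium, and to 1703 and 1481 FPKM in vector cells in osteogenic medium, against 2490 and 2082 FPKM in complete medium. The ratio of Gsn FPKM to the summed FPKM of 6 actin genes was 1.68 and 1.97 in EphrinB2 cells in osteogenic medium, against 0.0678 and 0.0519 in complete medium. The ratio was 1.91 and 2.37 in vector cells in osteogenic medium, against 0.0812 and 0.0852 in complete medium. Per length, Gsn stood above the 6 actin genes together in each of the 4 osteogenic libraries and below them in the other 4.

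**Figure D3:**
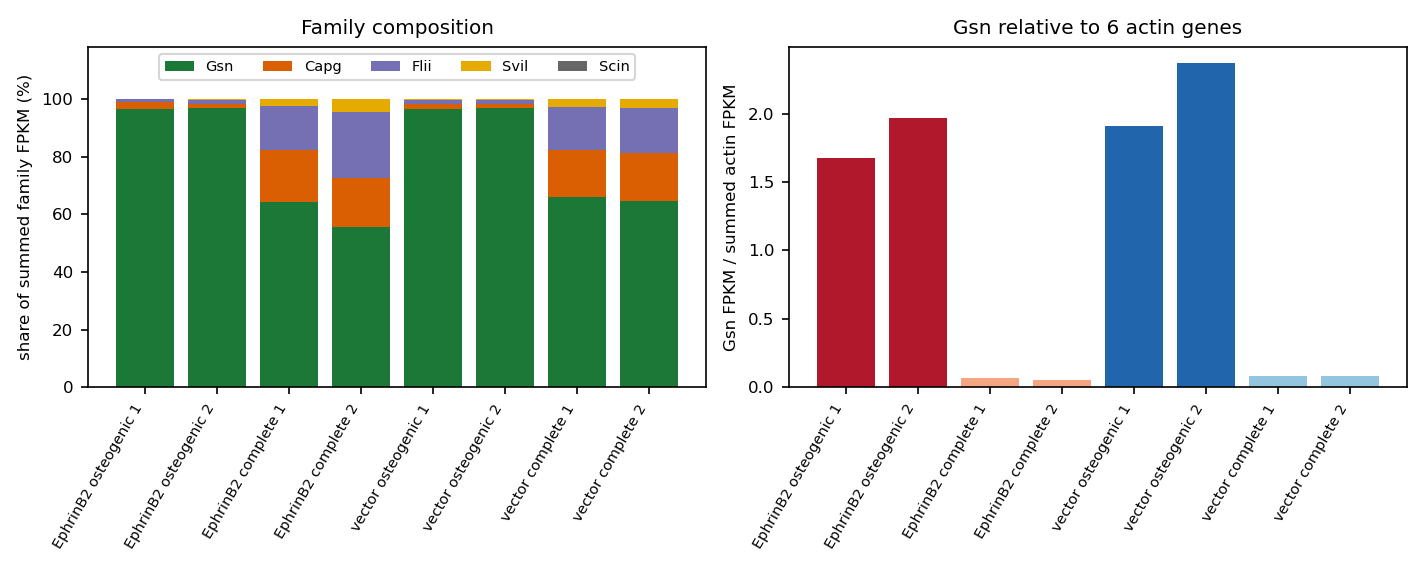
Left, share of the summed FPKM of the family (%) given by each member in each library. Right, ratio of Gsn FPKM to the summed FPKM of 6 actin genes in each library. In osteogenic medium Gsn gives 96.4% or more of the family and a ratio of 1.68 or more, and in complete medium at most 65.9% and 0.0852.

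EphrinB2 against vector asks whether the overexpressed ligand went with other levels of the family in a given medium. In osteogenic medium the log2 difference was 0.21 for Gsn (interval of 95% from -0.31 to 0.72), 0.50 for Capg (from -0.34 to 1.34), -0.13 for Flii (from -0.63 to 0.38), -0.59 for Svil (from -1.5 to 0.31) and -0.16 for Scin (from -0.53 to 0.20). In complete medium it was -0.24 for Gsn (from -0.75 to 0.28), -0.02 for Capg (from -0.86 to 0.81), 0.16 for Flii (from -0.34 to 0.66), 0.07 for Svil (from -0.84 to 0.97) and -0.21 for Scin (from -0.57 to 0.16). In both media 0 of 5 members passed and 0 had an unadjusted p under 0.05 (limma, adjusted p from 0.567 to 1). The background was 0% of tested genes in osteogenic medium and 0.0077% (1 gene) in complete medium, with 441 and 167 genes at an unadjusted p under 0.05. With all libraries scaled to the same FPKM sum, Gsn in osteogenic medium turned to -0.06, and the median of all tested genes to -0.19. Gsn rested on 7531 or more reads in every library.

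For Gsn the libraries of EphrinB2 and vector cells overlapped in both media. In osteogenic medium Svil, at 5.79 and 13.7 FPKM in EphrinB2 and 13.8 and 14.3 FPKM in vector cells, and Scin, at 0.925 and 1.04 FPKM in EphrinB2 and 1.09 and 1.36 FPKM in vector cells, did not overlap and were lower in EphrinB2 cells, as were 22.3% of tested genes, and 0 members were higher without overlap, as were 25.6%. In complete medium Scin, at 0.328 and 0.303 FPKM in EphrinB2 and 0.498 and 0.538 FPKM in vector cells, was the only member without overlap, again lower in EphrinB2 cells, as were 11.5% of tested genes, and 0 members were higher without overlap, as were 14.3%. Without EphrinB2 osteogenic replicate 2, which leaves 1 library in that group, Capg (1.07, adjusted p = 0.0231) and Svil (-1.15, adjusted p = 0.0447) passed in osteogenic medium, along with 2742 of all genes. Without replicate 1, which stood apart, they were at -0.07 and -0.03.

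The effect of the medium was compared between EphrinB2 and vector cells with an interaction term. It was 0.44 (SE 0.31) for Gsn, 0.52 (SE 0.50) for Capg, -0.29 (SE 0.30) for Flii, -0.66 (SE 0.54) for Svil and 0.04 (SE 0.22) for Scin. Of the 5 members 0 passed and 0 had an unadjusted p under 0.05 (limma, adjusted p from 0.746 to 0.936), where 0% of all genes passed and 214 had an unadjusted p under 0.05. The ratios of 24.3 and 17.8 for Gsn are therefore not shown to differ.

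In the libraries that stood apart, short and long members moved in opposite directions. EphrinB2 osteogenic replicate 1 minus replicate 2 gave a log2 difference of 1.15 for Capg (2529 bases), -0.08 for Scin (2999 bases), 0.32 for Gsn (3157 bases), -0.26 for Flii (5039 bases) and -1.11 for Svil (10701 bases). With the exception of Scin, values fell as length grew. EphrinB2 complete replicate 2 minus replicate 1 gave -0.19 for Capg, -0.03 for Scin, -0.30 for Gsn, 0.50 for Flii and 0.70 for Svil, with the longer members higher. Over all tested genes in 4 bins of length, the median difference was 0.54 in the shortest and -0.43 in the longest bin in osteogenic medium, and -0.29 in the shortest and 0.29 in the longest bin in complete medium. In vector cells the partners of each member differed by -0.18 to 0.19, and the medians by length lay between -0.01 and 0.03. The part of length in the differences of Capg and Svil was not tested.

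**Figure D4:**
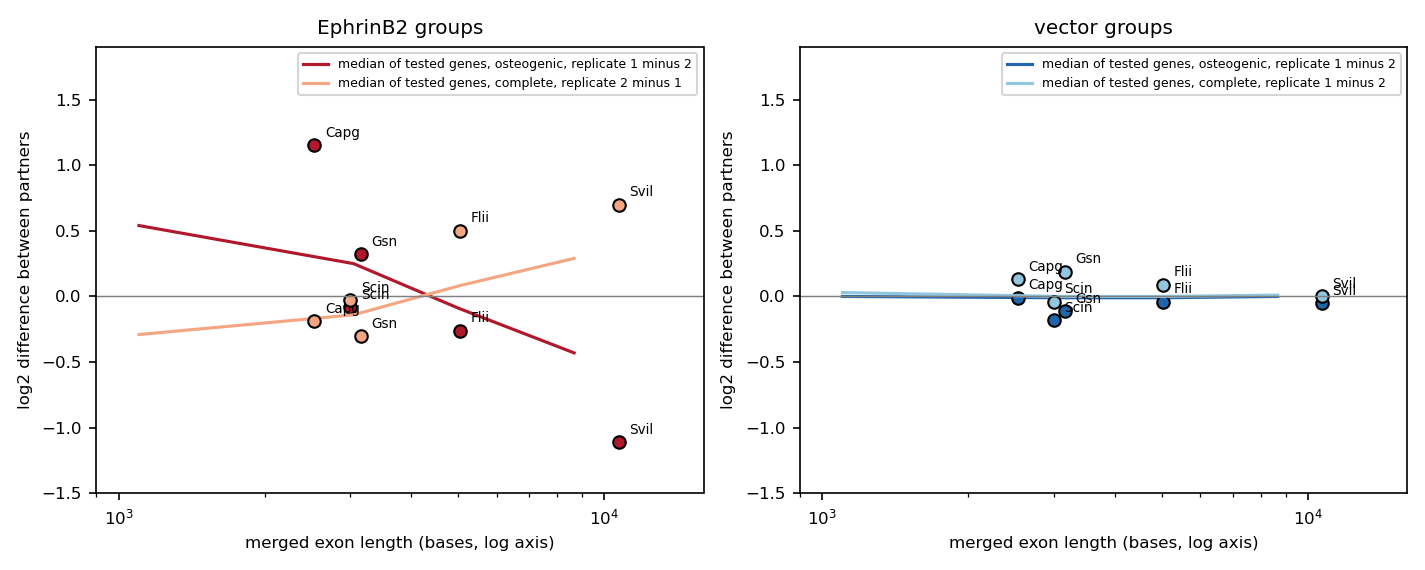
Difference in log2(FPKM + 1) between the 2 libraries of a group (vertical axis) against merged exon length in bases (log axis), for the 5 members (points) and for the median of all tested genes in 4 bins of length (lines). In EphrinB2 cells Capg and Svil lie at 1.15 and -1.11 in osteogenic medium, while all members of the vector groups lie within -0.18 to 0.19.

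The actin lists held 78 other tested genes, which handle actin, are partners of Flii and Svil or respond to the factors MRTF and SRF. Of these 78 genes, 8 (10.3%) passed between the media in EphrinB2 cells, 2 higher and 6 lower. In vector cells 4 (5.13%) passed, 3 higher and 1 lower. Of all tested genes 6.36% rose and 5.44% fell in EphrinB2 cells, and 4.41% rose and 3.11% fell in vector cells. The share of listed genes called lay near that of all genes. The other gelsolin relatives Vil1, Vill and Avil did not pass the filter. Of 14 tested cofilin genes and cofactors 1 fell in EphrinB2 cells, the actin-oxidizing enzyme Mical2, and 0 passed in vector cells. Mical2 stood at 5.60 and 14.1 FPKM in osteogenic medium, against 23.8 and 38.4 FPKM in complete medium in EphrinB2 cells (log2 -1.65, adjusted p = 0.0443), and the difference in vector cells was -0.84 (adjusted p = 0.325). Cofilin itself, Cfl1, was at 0.33 in EphrinB2 cells and -0.15 in vector cells (adjusted p = 0.491 and 0.9). Of 11 end-capping genes 0 passed in EphrinB2 cells, and 1 rose in vector cells, the pointed-end cap Tmod1 (1.23, adjusted p = 0.0195), which stood at 1.51 and 1.79 FPKM in osteogenic medium, against 0.203 and 0.0545 FPKM in complete medium. Tmod1 reached the filter only through osteogenic libraries, so its call is no independent support, and its difference in EphrinB2 cells was 0.72 (adjusted p = 0.0814). The barbed-end cap Capzb stood at 0.18 in EphrinB2 cells and -0.13 in vector cells (adjusted p = 0.63 and 0.884).

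Formins, which elongate filaments, had 1 rise and 2 falls among 13 tested genes of the nucleator list in EphrinB2 cells, and 1 rise and 0 falls in vector cells. The leukocyte formin Fmnl1 rose in both, as did macrophage markers, whose part in it was not tested. It stood at 6.74 and 6.95 FPKM in osteogenic medium, against 3.18 and 3.52 FPKM in complete medium in EphrinB2 cells (log2 0.85, adjusted p = 0.0135), and the difference in vector cells was 0.88 (adjusted p = 0.0147). Diaph3 (-1.05, adjusted p = 0.0145) and Fmnl3 (-0.83, adjusted p = 0.0215) fell in EphrinB2 cells, and stood at -0.76 and -0.65 in vector cells (adjusted p = 0.054 and 0.0632). Of 9 Arp2/3 subunits, which branch filaments, and 4 monomer-binding genes 0 passed in either kind of cell, with Arpc2 at 0.18 and -0.13 and the thymosin Tmsb4x at 0.50 and -0.29 in EphrinB2 and vector cells (adjusted p from 0.439 to 0.884). Of 4 tested actin genes the smooth muscle actin Actg2 fell in EphrinB2 cells (-0.60, adjusted p = 0.0411), while Actb stood at -0.22 (adjusted p = 0.614). In vector cells 0 passed, with Actg2 at -0.31 (adjusted p = 0.303). Of 4 tropomyosins 0 passed in either, with Tpm4 at -0.21 in EphrinB2 cells and -0.37 in vector cells (adjusted p = 0.448 and 0.366).

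Among the 4 partners of Flii and Svil the non-muscle myosin Myh10 fell in EphrinB2 cells. It stood at 4.54 and 9.46 FPKM in osteogenic medium, against 23.4 and 37.3 FPKM in complete medium (log2 -2.01, adjusted p = 0.0129), and the difference in vector cells was -1.23 (adjusted p = 0.0825). Myh9 was at -1.65 in EphrinB2 and -0.70 in vector cells (adjusted p = 0.0708 and 0.535). MRTF is released or held back by the state of actin. Of 18 genes that respond to MRTF and SRF, 1 rose and 1 fell in each kind of cell. The focal adhesion protein Zyx rose in both, by 0.82 in EphrinB2 cells and 0.78 in vector cells (adjusted p = 0.0168 and 0.0243). It stood at 67.0 and 68.2 FPKM in osteogenic medium, against 38.4 and 37.4 FPKM in complete medium in EphrinB2 cells. The crosslinker Actn1 fell in EphrinB2 cells (-1.62, adjusted p = 0.0135) and stood at -1.15 in vector cells (adjusted p = 0.0545). The matricellular gene Ccn1 fell in vector cells (-1.08, adjusted p = 0.0487) and stood at -0.67 in EphrinB2 cells (adjusted p = 0.131). None of these lists held a gene past the threshold for the interaction, so no difference between the kinds of cell is shown. The medians of these lists ran from -0.86 to 0.31 in EphrinB2 cells and from -0.46 to 0.25 in vector cells, against 0.03 and -0.02 for all tested genes.

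**Figure D5:**
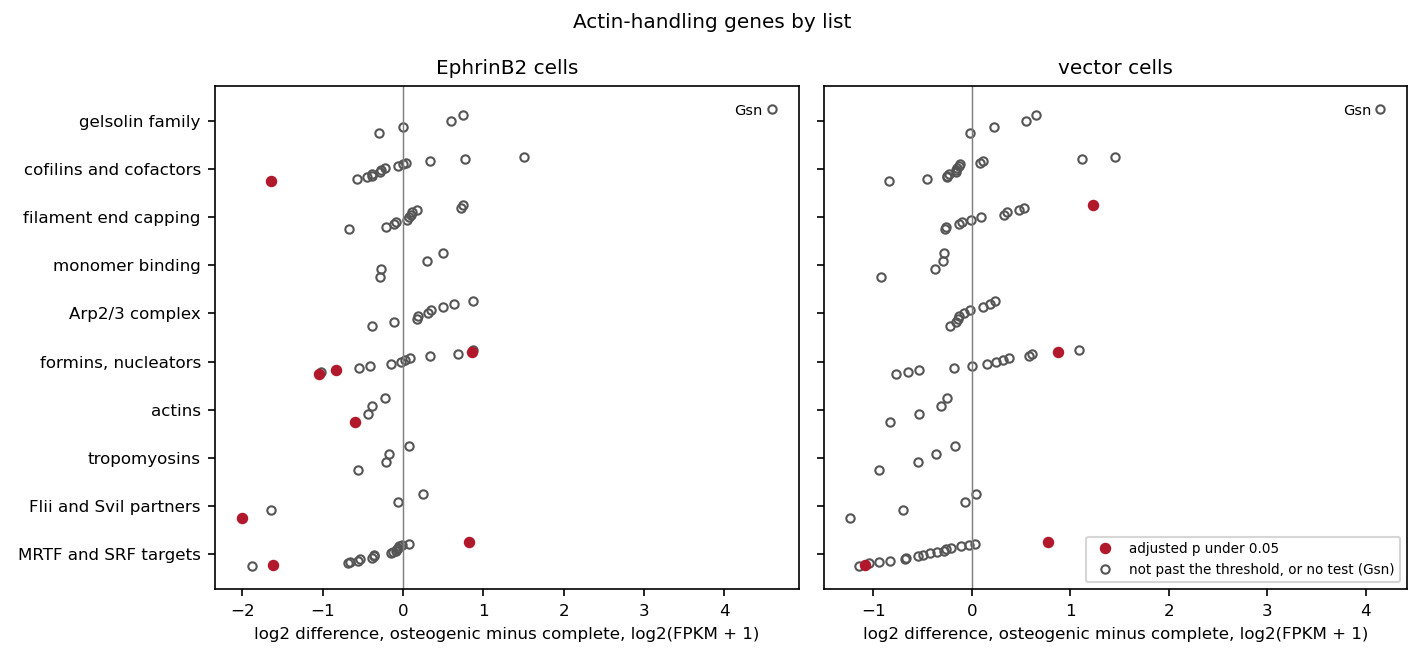
Difference in log2(FPKM + 1), osteogenic minus complete medium (horizontal axis), in EphrinB2 cells (left) and vector cells (right). Points are every tested gene of the family and of 9 other lists. These lists hold genes that handle actin, partners of Flii and Svil, and genes that respond to MRTF and SRF. Filled points passed an adjusted p of 0.05 in limma. Gsn stands alone at 4.59 and 4.15, and the lowest of the listed genes is Myh10 at -2.01 in EphrinB2 cells.

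Genes with a pattern most like that of each member were taken by Pearson's r of log2(FPKM + 1) over the 8 libraries, among protein-coding genes with a mean of at least 5 FPKM. The libraries fall into 2 media and share the differences in depth and length described above, so r is given as a description, with no test. For Gsn, among 6657 genes, these were the transcription factor Klf15 (r = 0.9996), the kinase Sgk1 (0.9990), the matricellular gene Sparcl1 (0.9989), the dipeptidase Dpep1 (0.9986), the retinaldehyde dehydrogenase Aldh1a1 (0.9985), the mitochondrial carrier Sfxn2 (0.9985), the claudin Cldn11 (0.9984) and the steroid sulfate transporter Slc10a6 (0.9980). Klf15 stood at 38.0 and 35.6 FPKM in EphrinB2 cells in osteogenic medium, against 3.69 and 2.89 FPKM in complete medium. Dpep1, the most abundant of them in osteogenic medium, stood at 754 and 820 FPKM in vector cells in osteogenic medium, against 119 and 112 FPKM in complete medium. Aldh1a1 was nearly as abundant as Gsn in vector cells in complete medium, at 193 and 177 FPKM, and reached 422 and 450 FPKM in osteogenic medium.

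The other members had other neighbours. Capg was most like the NADPH oxidase subunit Cyba (r = 0.9929), Mrpl24 (0.9912) and Rbfa (0.9899). Cyba stood at 292 and 108 FPKM in EphrinB2 cells in osteogenic medium, against 100.5 and 72.7 FPKM in complete medium, with the same library highest as for Capg. Svil was most like the deacetylase Hdac7 (0.9940), the adhesion protein Tns1 (0.9927) and the Wnt receptor Fzd4 (0.9909). Tns1 stood at 74.5 and 215 FPKM in EphrinB2 cells in osteogenic medium, against 92.3 and 172 FPKM in complete medium, low in the same libraries as Svil. Flii was most like Nploc4 (0.9879), Mprip (0.9874) and Cux1 (0.9870), and Scin most like Sh3bp2 (0.9929), the leukocyte receptor Cd84 (0.9917) and Sipa1 (0.9840).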

How the data were processed

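RNA libraries of mouse cardiac fibroblasts were sequenced and summarised by the authors. The tools named are DESeq2 1.16.1, featureCounts 1.5.0-p3, HISAT2 2.0.5 and CASAVA, and the genome build is mm10, per the submitters' processing notes. The deposited values are FPKM, 1 per gene and library. No source used here gives the annotation release, the strand setting or any filter. GENCODE M21 on GRCm38, the assembly of mm10, supplied symbols, positions and the length of merged exons, and matched 54495 of 54532 identifiers.

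The read number of each library was inferred from low values, where FPKM times merged exon length gave whole reads, within 0.02, for 98.1% to 98.3% of genes under 50 reads. Such reads carry counting error and any other difference between libraries. Capg had 6167 and 2588 reads in EphrinB2 osteogenic replicates 1 and 2. Genes with at least 1 FPKM in at least 2 libraries (12994) were analysed as log2(FPKM + 1), which understates changes of low genes, in limma 3.58.1 (R 4.3.3) with a mean per group, a mean-variance trend, 4 residual and 2.72 prior degrees of freedom, two-sided moderated tests and Benjamini-Hochberg adjustment over all tested genes, at a threshold of 0.05. The steps were tested on simulated data. No count model was fitted to FPKM.

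The members and the lists of actin and marker genes were chosen with earlier results of these data known. Named genes were all members, called members of each actin list (up to 4 per comparison of media with the smallest p, otherwise the most abundant), the 3 rank neighbours of Gsn on each side and the genes most alike. Alternatives were another pseudocount, no filter, no trend, 3 other scalings, and fewer libraries.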

Additional observations from a re-analysis of the deposited data

How the results depend on the processing

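No paired analysis was possible because the labels give no replicate number shared between groups. Across the alternatives, 352 of the values recomputed for members counted as unchanged. For Gsn between the media, given with no test, this meant the same direction and a move smaller than the spread between libraries. For all other values it meant the same direction and the same side of the threshold. Another 12 newly passed without a change of sign. For Gsn between media in EphrinB2 cells, 3 moved by more than the spread. A further 28 changed sign and were counted so whether or not they then passed. None of the 28 was past the threshold in the fit of all libraries. With 2 libraries a group, counts of called genes depended on which libraries set the spread, and the cause of the changes below was not tested.

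Between media in EphrinB2 cells, 1533 genes and 0 of 4 members were called. The 1 member that passed with a pseudocount of 0.1, and with no trend, was Scin. Scin reached the filter only through osteogenic medium, so its calls between media under any alternative are no independent support. A pseudocount of 0.1 and no trend each gave 1 member, without both libraries that stood apart there were 3858 genes and 1 member, the 4 EphrinB2 libraries alone gave 153 genes (72.5% higher, against 53.9%), and leaving out 1 library gave 635 to 5686 genes and 0 to 2 members. In vector cells, 977 genes and 0 of 4 members were called. Scin is 1 of the 3 members in both counts of 3 that follow, with the same limit. Without both libraries that stood apart there were 5274 genes (45.7% higher, against 58.6%) and 3 members, the 4 vector libraries alone gave 5273 genes and 3 members, and leaving out 1 library gave 169 to 1749 genes. For EphrinB2 against vector in osteogenic medium, 0 genes became 14 with no filter, 1 without both libraries that stood apart and 0 to 2742 with 1 library left out, with 0 to 2 members. In complete medium, 1 gene became 0 with a pseudocount of 0.1 or the 4 libraries compared, 13 with no filter, 2 without both libraries that stood apart and 0 to 1 with 1 left out. For the interaction, 0 genes became 22 with no filter.

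Svil between media in EphrinB2 cells, at 0.00 with all libraries, had no stable direction. It ran from -0.56 to 0.55 with 1 library left out. Without both libraries that stood apart, a fit with 1 library in each EphrinB2 group, it was 0.90. To 2 decimals, this value with quantile normalization, Flii between media in vector cells with median ratio scaling and Flii for EphrinB2 against vector in osteogenic medium without both libraries that stood apart were 0.00, with a turned sign. With quantile normalization Flii between media in vector cells was 0.09 and Gsn for EphrinB2 against vector in osteogenic medium -0.04. With the same FPKM sum in every library, chosen after seeing the data, that difference was -0.06 and the interaction of Scin -0.06, and this scaling moved the median of all genes to -0.19 and -0.16 in those comparisons, and to -0.12 between media in EphrinB2 cells. Without both libraries that stood apart, Flii between media in EphrinB2 cells was 0.08, Capg for EphrinB2 against vector -0.07 in osteogenic and 0.07 in complete medium, Svil -0.28 and Flii -0.09 in complete medium, and the interaction -0.15 for Capg, 0.25 for Svil and 0.09 for Flii. With 1 library left out, Flii between media in vector cells ran from -0.06 to 0.03, Capg for EphrinB2 against vector from -0.07 to 1.07 in osteogenic and -0.12 to 0.07 in complete medium, Flii from -0.26 to 0.00 in osteogenic medium, Svil from -0.28 to 0.41 and Flii from -0.09 to 0.41 in complete medium, and the interaction from -0.05 to 1.09 for Capg and -0.05 to 0.13 for Scin. Gsn between media ran from 4.28 to 4.75 in EphrinB2 and 3.99 to 4.24 in vector cells under all alternatives.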
